A study of Mus musculus with 2 samples.

Results

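Toll-like receptors sense molecules of microbes and of damaged cells, and Unc93b1 is the chaperone that carries several of them to endosomes. Described here are Tlr1, Tlr2, Tlr3, Tlr4, Tlr7, Tlr9, Tlr11, Tlr12, Tlr13 and Unc93b1, 10 genes chosen by symbol among the 27998 counted. They were measured by single-cell RNA sequencing of CD11c-selected cells from the tumours of C57BL/6N PyMT mice. The labels give a single wild-type group with 2 libraries, which are named replicate 1 and replicate 2. PyMT mice carry the middle T antigen of polyoma virus and grow mammary tumours, and CD11c, encoded by Itgax, is an integrin of dendritic cells and many macrophages. Not given in the sources used here are the promoter of the transgene, the age of the mice and the means of selection. No label ties the libraries to separate mice, so p-values measure only how differences between classes vary between these 2 libraries, which may be technical. Those given without the library block also take in the overall difference between the libraries.

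With a single group, the comparisons lie between classes of cells inside each library. A cell was placed in a class by the level of marker genes, none of which is a Toll-like receptor or Unc93b1. The names carry the suffix "like" because they were rebuilt from those markers. Monocyte-like cells numbered 206 in replicate 1 and 118 in replicate 2, and macrophage-like cells 943 and 542. Among dendritic cells (DC), there were 96 and 68 cDC1-like cells (conventional type 1), 49 and 28 mature DC-like cells and 134 and 155 cDC2-like cells (conventional type 2). UMIs (unique molecular identifiers, which tag captured molecules) were summed per class and library, and a level is given as CPM, a gene's share of all UMIs of that sum scaled by TMM. These kits read the 3′ end of a transcript, so a CPM value compares a gene between classes and not 1 gene with another.

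The markers given next helped to set the gates, so their levels describe the classes and are no check on the names. C1qa reached 4506 and 5450 CPM in macrophage-like cells, Xcr1 131 and 174 CPM in cDC1-like cells, Ccr7 4036 and 4072 CPM in mature DC-like cells and Cd209a 1128 and 1156 CPM in cDC2-like cells. The monocyte-like class was weaker: Retnla, Lyz1, Ear2 and Fn1 led it, whereas the classical monocyte gene Vcan gave only 4.11 and 4.64 CPM there. An unnamed cluster whose leading genes include the monocyte markers Ly6c2, Chil3 and Ms4a4c had 151 of its cells in the macrophage-like class, where they count in every comparison below. Of the 289 cDC2-like cells, 37 lay in an unnamed cluster whose 10 leading genes include the plasmacytoid DC markers Siglech, Ccr9 and Cox6a2 beside Cd7 and Ifitm1. These unnamed clusters are left out where cells are classed by cluster. So is another unnamed cluster of 128 cells, led by Ube2c and Birc5, with 47 macrophage-like cells. Class sums held 190424 to 5685735 UMIs, smallest in mature DC-like cells of replicate 2, and free RNA was estimated at 0.922% to 1.76% of a sum. A count of 0 in both libraries of mature DC-like cells allows a level of up to 6.25 CPM, against 0.31 CPM in macrophage-like cells, counting error only.

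The receptors divide into those of the cell surface and those of endosomes. At the surface, Tlr2 recognises bacterial lipoproteins in a pair with Tlr1 or Tlr6, and Tlr4 recognises lipopolysaccharide together with Ly96 and Cd14. In endosomes, Tlr3 binds double-stranded RNA, Tlr7 single-stranded RNA, Tlr9 DNA with unmethylated CpG and Tlr13 bacterial ribosomal RNA, and mouse Tlr11 and Tlr12 bind the profilin of Toxoplasma. Unc93b1 takes the endosomal receptors out of the endoplasmic reticulum, and lysosomal proteases then cut their ectodomains. Tlr3 signals through the adaptor Ticam1, and most of the others through Myd88.

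Promoter sequence is shown for the genes on which the contrast between classes turns, Tlr2, Tlr12 and Tlr3, and for Tlr11, the partner of Tlr12. RefSeq promoters (build GRCm38.p6) were found for 7 of the 10 genes, all but Tlr4, Tlr7 and Unc93b1. The motif search covered 250 bases before each start. Printed here is the stretch of each window that lies outside exons of the GENCODE M21 annotation, 5′ to 3′ on the strand of the gene. Capitals mark the ETS core GGAAGT and the interferon-stimulated element, which is GAAA, any 2 bases and GAAA again.
Tlr2 (chr3:83841768-83841858, minus strand): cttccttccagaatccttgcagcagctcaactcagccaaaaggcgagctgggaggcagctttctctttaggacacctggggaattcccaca
Tlr12 (chr4:128618620-128618869, minus strand): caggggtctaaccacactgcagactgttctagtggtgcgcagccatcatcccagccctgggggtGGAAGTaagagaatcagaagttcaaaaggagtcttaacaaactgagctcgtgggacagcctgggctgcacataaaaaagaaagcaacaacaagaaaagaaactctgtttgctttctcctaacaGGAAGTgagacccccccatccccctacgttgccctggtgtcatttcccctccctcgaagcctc
Tlr11 (chr14:50357664-50357913, plus strand): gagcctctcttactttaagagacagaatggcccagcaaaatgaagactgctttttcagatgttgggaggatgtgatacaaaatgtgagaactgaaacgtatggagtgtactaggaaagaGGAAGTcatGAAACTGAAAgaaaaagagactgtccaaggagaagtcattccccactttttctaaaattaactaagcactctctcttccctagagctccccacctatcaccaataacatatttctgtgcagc
Tlr3 (chr8:45410381-45410452, minus strand): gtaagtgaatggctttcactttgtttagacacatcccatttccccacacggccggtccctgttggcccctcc
Tlr12 carried the ETS core at 186 and 63 bases before its start, and Tlr11 carried it at 131 bases with the interferon-stimulated element at 122 bases before its start. Tlr2 had the ETS core 30 bases before its start, in bases that are exonic in GENCODE and so are not shown, and Tlr1 had it 21 bases before the start of 1 of its 2 promoters. Searched on both strands, the ETS core occurred in 19.7% and the interferon-stimulated element in 2.98% of all 32851 promoter windows of this length. The ETS-IRF composite, which is GGAA, any 2 bases and GAAA and can overlap the ETS core, occurred in 2.30% of all windows and in none of these genes' windows. In the Tlr3, Tlr9 and Tlr13 windows none of the 3 motifs matched, which says only that these letters are not there. The shown stretch of Tlr3 lies in an intron of a longer Tlr3 transcript.

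How much can be said of each gene is set by its UMIs. Over the 5 classes, Unc93b1 had 7068 and Tlr2 6101, whereas Tlr7 had 309, Tlr1 170, Tlr13 165, Tlr12 159, Tlr4 76, Tlr3 68, Tlr11 9 and Tlr9 8. Of the 10 genes, 7 passed the filter on low counts and were tested with edgeR among 6842 genes. Tlr4, Tlr9 and Tlr11 did not pass. A gene that passes only through the class in which it is high is bound to differ, so the counts of calls below are descriptions. Tlr3 was high only in cDC1-like cells, and Tlr1, Tlr7, Tlr12 and Tlr13 only in macrophage-like cells. For these genes each call and adjusted p below is likewise a description and no independent evidence of a difference. A test for any difference among the 5 classes called 7 of these 7 genes, where it called 61.1% of all genes tested. The highest of their adjusted p-values was 0.000219, for Tlr1 (edgeR's quasi-likelihood test with Benjamini-Hochberg adjustment, as for every adjusted p below unless another tool is named).

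Macrophage-like cells stood above the other classes for most of the receptors, and cDC1-like cells for Tlr3. Monocyte-like cells had 6 of 7 genes called lower than macrophage-like cells and 0 higher, where 30.4% of all genes were called and 15.6% were lower. Macrophage-like cells had 6 of 7 called higher and 1 lower against cDC1-like cells, where 40.4% of all genes were called, 21.0% as higher and 19.4% as lower. Against cDC2-like cells they had 6 higher and 0 lower, where 37.0% were called and 18.8% were higher. These comparisons share the macrophage-like sums and so are not independent.

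Fewer of the genes separated the dendritic classes. In cDC1-like against cDC2-like cells, 2 were called higher (Tlr3 and Unc93b1) and 1 lower (Tlr2), where 20.1% of all genes were called, 9.0% as higher and 11.1% as lower. In mature DC-like against cDC2-like cells, only Unc93b1 was called, as lower, where 19.0% of all genes were called, 9.94% as higher and 9.03% as lower.

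**Figure D1:**
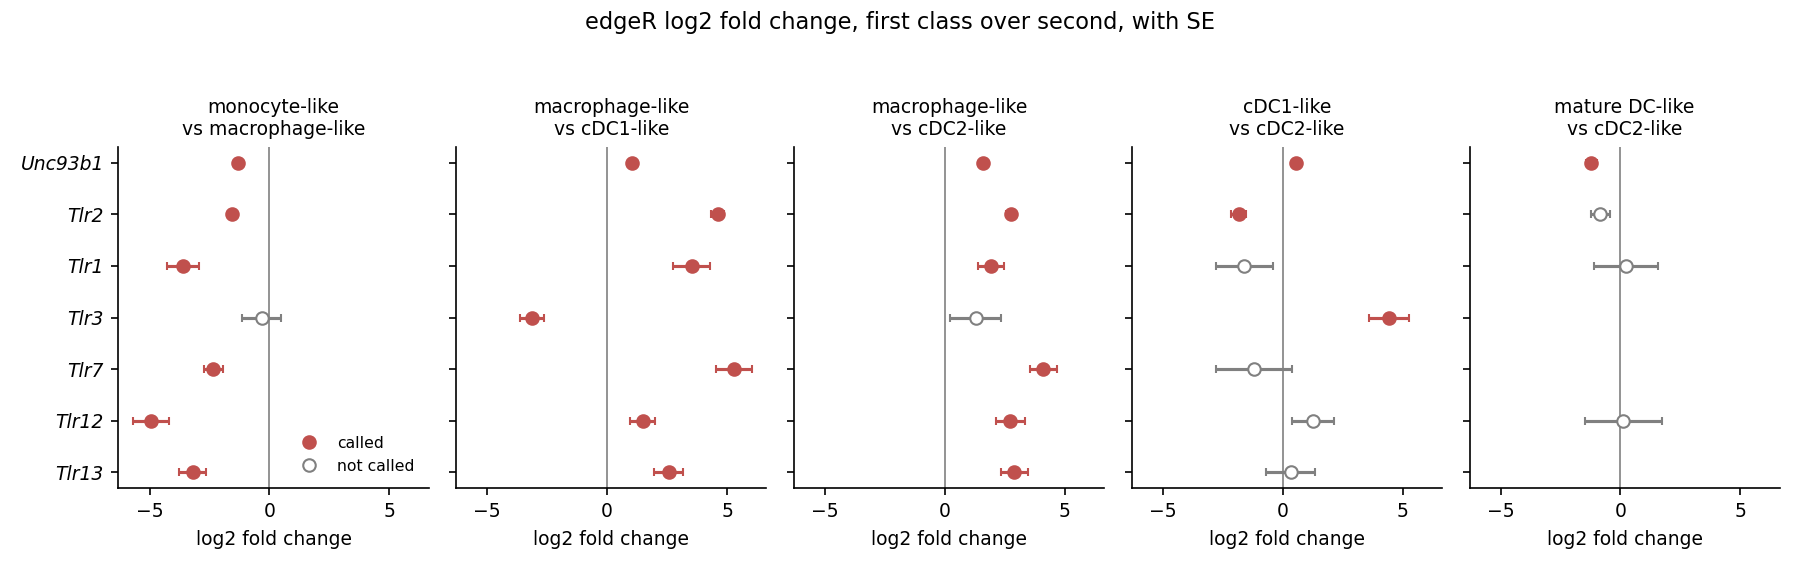
Log2 fold change (x axis, first class over second, edgeR fit, bars SE) of the 7 tested genes in 5 comparisons, filled red where called and open grey where not, with no point where a class had 0 UMIs. Tlr3 lies at 4.42 in cDC1-like against cDC2-like cells and at −3.14 in macrophage-like against cDC1-like cells, each time on the other side of 0 from Tlr2; points resting on 1 to 3 UMIs in a class depend on the fit's prior count.

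Unc93b1 was counted in every class. Its level was 221 and 238 CPM in monocyte-like cells (replicate 1 and replicate 2), 536 and 590 CPM in macrophage-like cells, 264 and 282 CPM in cDC1-like cells, 89.3 and 69.2 CPM in mature DC-like cells and 194 and 183 CPM in cDC2-like cells. Macrophage-like cells were highest, followed by cDC1-like, monocyte-like, cDC2-like and mature DC-like cells, and no neighbours in that order overlapped between libraries. In monocyte-like cells the log2 fold change against macrophage-like cells was −1.30 (SE 0.13, adjusted p = 6.28e-07), and −1.19 with cells classed by cluster. Macrophage-like cells were higher than cDC1-like cells by a log2 fold change of 1.05 (SE 0.13, adjusted p = 5.45e-06) and higher than cDC2-like cells by 1.58 (SE 0.14, adjusted p = 5.04e-08).

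The lymph-node homing receptor Ccr7 was at 4036 and 4072 CPM in mature DC-like cells, and cDC2-like cells carried it too, at 506 and 815 CPM. Among the dendritic classes, Unc93b1 was lowest in mature DC-like cells. Against cDC2-like cells their log2 fold change was −1.21 (SE 0.22, adjusted p = 0.000681; 35 against 366 UMIs), and it was −1.11 in replicate 1 and −1.39 in replicate 2. The higher level of cDC1-like than of cDC2-like cells was small, at a log2 fold change of 0.54 (SE 0.15, adjusted p = 0.0141). That call was lost with cells classed by cluster (0.21, adjusted p = 0.411), with no filter on low counts (adjusted p = 0.0535) and with epithelial-like and fibroblast-like sums in the fit (adjusted p = 0.0596).

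**Figure D2:**
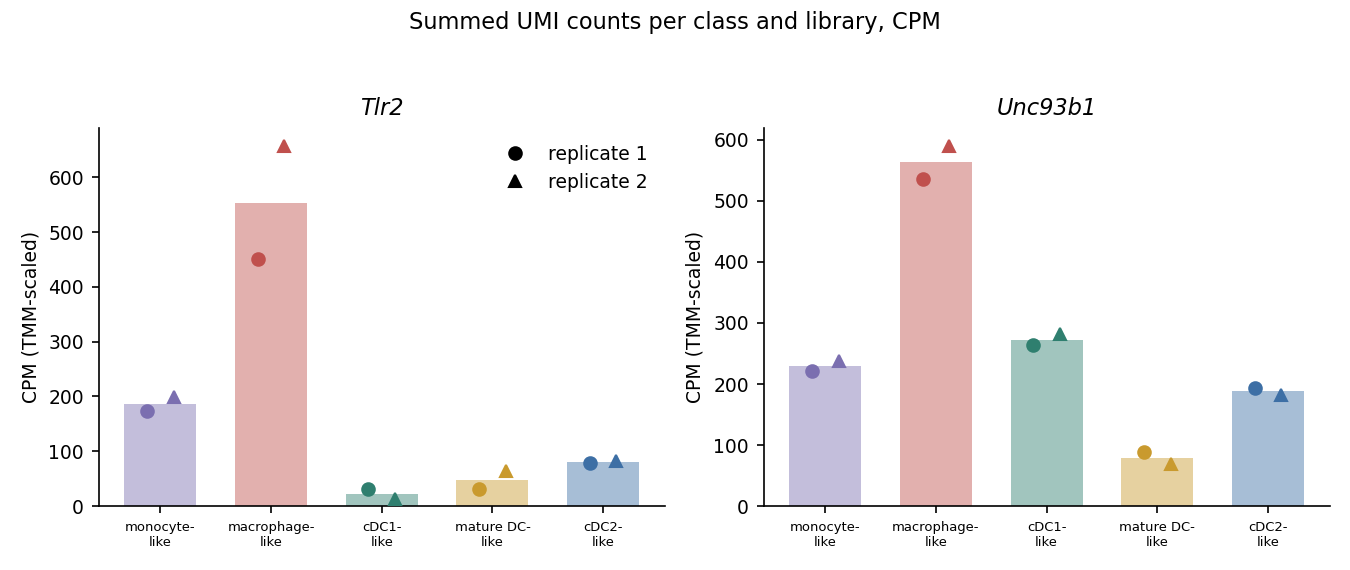
Level of Tlr2 and Unc93b1 (y axis, TMM-scaled CPM) in the 5 classes, with bars for the mean of the 2 libraries, circles for replicate 1 and triangles for replicate 2. Both genes are highest in macrophage-like cells, while in cDC1-like cells Unc93b1 is at 264 and 282 CPM and Tlr2 at 30.7 and 13.3 CPM.

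Tlr2, the lipoprotein receptor, was spread over a wider range. It measured 174 and 199 CPM in monocyte-like cells, 450 and 658 CPM in macrophage-like cells, 30.7 and 13.3 CPM in cDC1-like cells, 31.1 and 63.5 CPM in mature DC-like cells and 78.6 and 82.6 CPM in cDC2-like cells. In the order macrophage-like, monocyte-like, cDC2-like, mature DC-like and cDC1-like, no neighbouring classes overlapped, although the lower mature DC-like library and the higher cDC1-like library nearly met. The mean was 554 ± 147 CPM in macrophage-like cells (SD, n = 2), so the libraries of the highest class were also the furthest apart.

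Tlr2 was lower in monocyte-like than in macrophage-like cells by a log2 fold change of −1.55 (SE 0.18, adjusted p = 3.08e-06). Macrophage-like cells exceeded cDC1-like cells by 4.60 (SE 0.26, adjusted p = 2.10e-10) and cDC2-like cells by 2.77 (SE 0.21, adjusted p = 7.02e-09) on the log2 scale. The first of these differed between libraries, at 3.82 in replicate 1 and 5.51 in replicate 2. Tlr2 also separated the conventional classes, being lower in cDC1-like than in cDC2-like cells by −1.83 (SE 0.32, adjusted p = 0.000356; −1.32 and −2.53 by library). In mature DC-like against cDC2-like cells its log2 fold change was −0.83 (SE 0.39, adjusted p = 0.156), a difference not called here but called when no filter was applied.

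In 2 of the 3 dendritic classes, Tlr2 moved with macrophage genes between libraries. The summed level of the 10 macrophage markers was 1422 and 385 CPM in cDC1-like cells, 1748 and 2930 CPM in mature DC-like cells and 996 and 599 CPM in cDC2-like cells, beside 40579 and 50292 CPM in macrophage-like cells. In both cDC1-like cells and mature DC-like cells, the library with more macrophage-marker RNA was the library with more Tlr2, whereas in cDC2-like cells it was the library with slightly less, and 9 of the 10 markers had UMIs in each dendritic class. Of the 25 and 10 Tlr2 UMIs of cDC1-like cells, 2.14 and 2.11 were those that the free RNA estimate would give. The part of macrophage RNA in these values was not tested. In monocyte-like cells the same markers summed to 2616 and 2327 CPM, which is 6.45% and 4.63% of the macrophage-like level.

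Per cell, Tlr2 was seen in most macrophage-like cells. After each cell was thinned to 1900 UMIs, a Tlr2 UMI was present in 29.6% and 28.8% of monocyte-like cells, 50.5% and 61.4% of macrophage-like cells, 6.25% and 1.47% of cDC1-like cells, 4.08% and 3.57% of mature DC-like cells and 14.2% and 10.3% of cDC2-like cells. Epithelial-like cells, set beside the compared classes for reference, had 6.86% and 2.44%. Their median depths before thinning were 8736 and 9363 UMIs per cell, and those of cDC1-like cells were 7937 and 11104.5 UMIs. The cDC1-like share was below the epithelial-like share in both libraries, and the mature DC-like share was on either side of it. Epithelial-like cells are not shown to lack Tlr2, so neither share decides at this depth whether the class expresses Tlr2. With barcodes of at least 1000 UMIs thinned to that depth, the shares were 3.19% and 0% in cDC1-like cells, 3.64% and 3.45% in mature DC-like cells, beside 1.90% and 0% among epithelial-like cells, each resting on at most 3 cells, so their order depends on this setting. Without thinning, the shares were 49.0% and 63.6% in monocyte-like, 76.5% and 86.9% in macrophage-like, 17.7% and 11.8% in cDC1-like, 14.3% and 21.4% in mature DC-like, 29.9% and 36.8% in cDC2-like and 28.4% and 14.6% in epithelial-like cells.

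Unc93b1 behaved differently in cDC1-like cells. Its thinned share was 37.4% and 41.5% in monocyte-like cells, 64.1% and 66.2% in macrophage-like cells, 40.6% and 39.7% in cDC1-like cells, 18.4% and 10.7% in mature DC-like cells and 27.6% and 33.5% in cDC2-like cells, beside 7.84% and 14.6% in epithelial-like cells. The mature DC-like share in replicate 2 lay below the epithelial-like one, and the other classes lay above it in both libraries. Without thinning, Unc93b1 was seen in 71.8% and 78.0% of monocyte-like, 90.2% and 93.0% of macrophage-like, 86.5% and 89.7% of cDC1-like cells, 34.7% and 21.4% of mature DC-like cells, 60.4% and 65.8% of cDC2-like and 28.4% and 26.8% of epithelial-like cells.

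**Figure D3:**
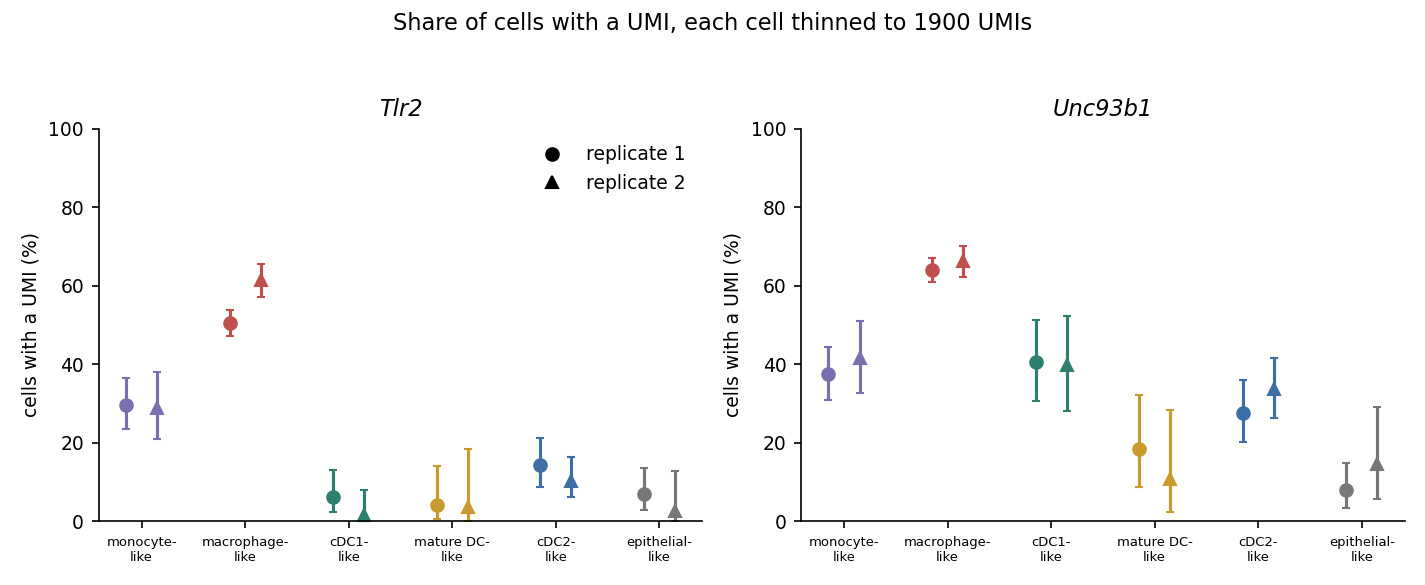
Share of cells with at least 1 UMI of Tlr2 or Unc93b1 (y axis, percent) after thinning to 1900 UMIs per cell, by class and library (circles replicate 1, triangles replicate 2), with exact 95% binomial intervals that cover counting error only. For Tlr2 the cDC1-like points (6.25% and 1.47%) sit at the level of epithelial-like cells (6.86% and 2.44%), and for Unc93b1 they sit at 40.6% and 39.7%, above the epithelial-like points of 7.84% and 14.6%.

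Tlr1, the partner of Tlr2 for triacylated lipoproteins, was counted mainly in macrophage-like cells. It had 0.69 and 1.86 CPM in monocyte-like cells, 14.8 and 16.0 CPM in macrophage-like cells, 2.45 and 0 CPM in cDC1-like cells, 7.77 and 0 CPM in mature DC-like cells and 1.23 and 6.15 CPM in cDC2-like cells. Macrophage-like cells stood clear of the other 4 classes, and those 4 overlapped one another. Against the 3 UMIs of monocyte-like cells, the 155 of macrophage-like cells made a pooled ratio of macrophage-like to monocyte-like level of 12.8 (95% counting interval 4.29 to 62.6), and monocyte-like cells were called lower (adjusted p = 0.000432). Macrophage-like cells were called higher than cDC1-like cells, which had 2 UMIs (ratio 12.8, interval 3.49 to 107, adjusted p = 0.00151). They were also called higher than cDC2-like cells, by a log2 fold change of 1.92 (SE 0.55, adjusted p = 0.0105; 2.72 and 1.23 by library), but DESeq2 gave an adjusted p of 0.0698.

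Tlr4, the lipopolysaccharide receptor, was too sparse for the filter. Its level was 4.11 and 8.35 CPM in monocyte-like cells, 5.65 and 5.82 CPM in macrophage-like cells, 1.23 and 0 CPM in cDC1-like cells, 3.88 and 0 CPM in mature DC-like cells and 1.23 and 0 CPM in cDC2-like cells. Monocyte-like and macrophage-like cells overlapped, and each dendritic class had 1 UMI, in replicate 1. The pooled level of macrophage-like cells was 9.60 times that of cDC1-like cells (interval 1.66 to 386) and 12.2 times that of cDC2-like cells (interval 2.11 to 491). When edgeR was run with no filter, Tlr4 was called higher in macrophage-like than in cDC1-like cells (adjusted p = 0.0194) and than in cDC2-like cells (adjusted p = 0.00774), and its log2 fold change in monocyte-like against macrophage-like cells was 0.02 (SE 0.51).

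Tlr3, the receptor for double-stranded RNA, had another leading class. It measured 0.69 and 3.71 CPM in monocyte-like cells, 2.83 and 1.94 CPM in macrophage-like cells, 15.9 and 30.6 CPM in cDC1-like cells, 0 CPM in both libraries of mature DC-like cells and 1.23 and 0.88 CPM in cDC2-like cells. The cDC1-like libraries both lay above every library of the other classes, although they differed from each other, and monocyte-like cells overlapped both macrophage-like and cDC2-like cells, which did not overlap each other. Relative to the 2 UMIs of cDC2-like cells, the 36 of cDC1-like cells gave a pooled ratio of 22.9 (95% counting interval 5.90 to 196), and cDC1-like cells were called higher (adjusted p = 0.00103). Macrophage-like cells were lower than cDC1-like cells by a log2 fold change of −3.14 (SE 0.51, adjusted p = 8.71e-05; −2.09 and −3.34 by library). In monocyte-like against macrophage-like cells the log2 fold change of Tlr3 was −0.32 (SE 0.82, adjusted p = 0.805).

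Cycling cells held part of the Tlr3 signal. Of the 164 cDC1-like cells, 34 were past a gate on cell-cycle genes, and they held 14 of the 36 Tlr3 UMIs. Without such cells, the unscaled level of Tlr3 was 11.6 and 27.1 CPM in cDC1-like cells, against 0 and 0.98 CPM in cDC2-like cells, but the gene then failed the filter and was not tested. Before thinning, a Tlr3 UMI was found in 10 of 96 and 18 of 68 cDC1-like cells, which is 10.4% (95% interval 5.11% to 18.3%) and 26.5% (16.5% to 38.6%). Epithelial-like cells reached 8.82% and 2.44%, and macrophage-like cells 1.80% and 1.48%. After thinning, cDC1-like cells kept 1.04% and 8.82%, epithelial-like cells 0.98% and 0%, so at equal depth the intervals of these 2 classes overlapped in both libraries.

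Tlr7, for single-stranded RNA, was highest in macrophage-like cells among the 5 compared classes, with a low level in monocyte-like cells. It had 4.80 and 6.49 CPM in monocyte-like cells, 31.6 and 24.5 CPM in macrophage-like cells, 1.23 and 0 CPM in cDC1-like cells, 0 CPM in mature DC-like cells and 0 and 2.64 CPM in cDC2-like cells. Monocyte-like cells lay below macrophage-like cells and above cDC1-like and cDC2-like cells, without overlap on either side. The 0 UMIs of mature DC-like cells allow up to 6.25 CPM, so their order against monocyte-like cells is not decided. The measured values of the dendritic classes overlapped. In monocyte-like against macrophage-like cells the log2 fold change was −2.34 (SE 0.39, adjusted p = 0.000209; −2.45 and −1.74 by library). The pooled macrophage-like level was 48.2 times that of cDC1-like cells, which had 1 UMI (interval 8.58 to 1909, adjusted p = 2.03e-05), and 20.4 times that of cDC2-like cells, which had 3 (interval 6.93 to 99.7, adjusted p = 2.23e-05). A Tlr7 UMI was present in 17.0% and 15.9% of macrophage-like cells before thinning, beside 0.98% and 0% of epithelial-like cells.

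Tlr13 and Tlr12 showed the same leading class. Tlr13, for bacterial ribosomal RNA, had 2.06 and 0.93 CPM in monocyte-like cells, 13.1 and 17.9 CPM in macrophage-like cells, 1.23 and 3.99 CPM in cDC1-like cells, 0 CPM in mature DC-like cells and 2.46 and 1.76 CPM in cDC2-like cells. Macrophage-like cells stood apart, and monocyte-like, cDC1-like and cDC2-like cells overlapped. The log2 fold change of Tlr13 was −3.21 in monocyte-like against macrophage-like cells (SE 0.56, adjusted p = 0.000275), 2.56 in macrophage-like against cDC1-like cells (SE 0.59, adjusted p = 0.00221) and 2.90 in macrophage-like against cDC2-like cells (SE 0.58, adjusted p = 0.000695). Each fold kept its sign in both libraries, but its size differed between them: −2.14 and −3.17 in the first comparison, 2.56 and 1.88 in the second and 1.97 and 2.69 in the third.

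Tlr12, one of the profilin receptors, had 0.69 and 0 CPM in monocyte-like cells, 14.5 and 14.1 CPM in macrophage-like cells, 7.36 and 2.66 CPM in cDC1-like cells, 3.88 and 0 CPM in mature DC-like cells and 2.46 and 1.76 CPM in cDC2-like cells. Macrophage-like, cDC1-like and cDC2-like cells followed one another without overlap, the last pair closely. Monocyte-like cells were called lower than macrophage-like cells (1 against 145 UMIs, ratio of macrophage-like to monocyte-like level 35.9, interval 6.33 to 1426, adjusted p = 6.09e-05). Macrophage-like cells were higher than cDC2-like cells by a log2 fold change of 2.73 (SE 0.59, adjusted p = 0.00126). Against cDC1-like cells the log2 fold change was 1.48 (SE 0.51, adjusted p = 0.0277), and this call was lost with DESeq2 (adjusted p = 0.117) and without cycling cells (adjusted p = 0.0586). In cDC1-like against cDC2-like cells, with 8 against 4 UMIs, Tlr12 was not called (adjusted p = 0.367).

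Tlr11 and Tlr9 were at the limit of detection. Tlr11, the other profilin receptor, gave 4 UMIs in cDC1-like cells, all in replicate 2 (5.32 CPM), 3 in macrophage-like cells, 1 in mature DC-like cells, 1 in cDC2-like cells and 0 in monocyte-like cells. The pooled cDC1-like level was 8.06 times that of macrophage-like cells (interval 1.36 to 55.0), a ratio that rests on 1 library. With no filter, edgeR did not call Tlr11 in macrophage-like against cDC1-like cells (log2 fold change −2.71, SE 1.72, adjusted p = 0.347). Tlr9, for CpG DNA, gave 8 UMIs in all: 5 in macrophage-like cells, 2 in monocyte-like cells and 1 in cDC1-like cells. Differences between classes were not detectable for Tlr9 at this depth. Of the receptors outside the set, Tlr5, Tlr6 and Tlr8 gave 10, 19 and 19 UMIs over the 5 classes.

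**Figure D4:**
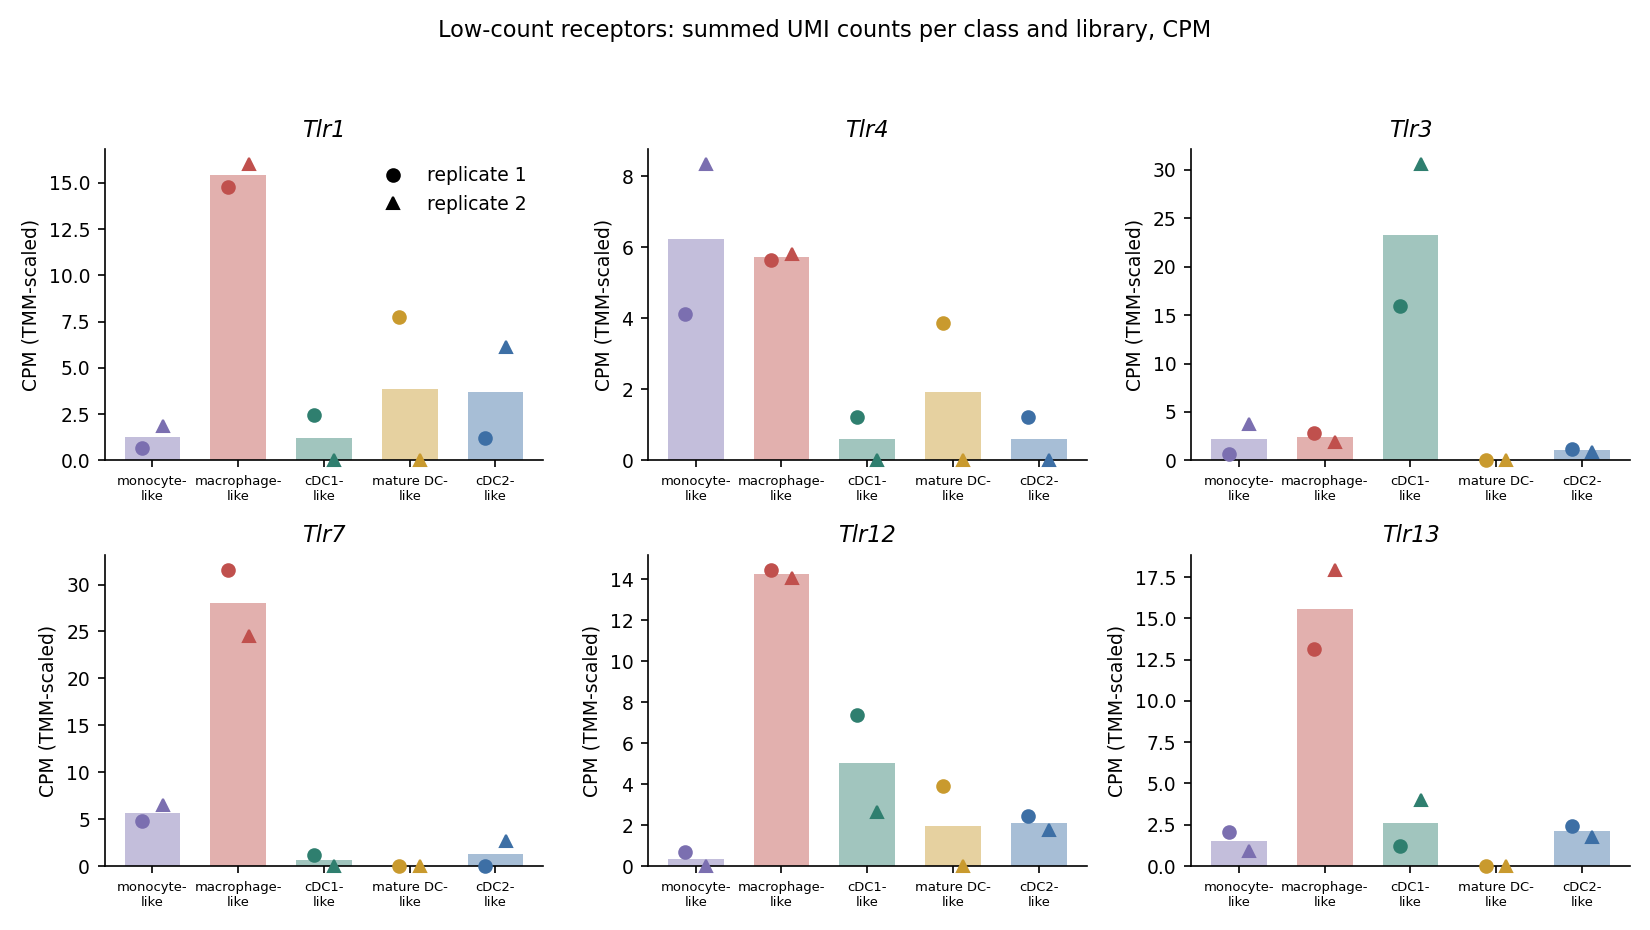
Level of the sparser receptors Tlr1, Tlr3, Tlr4, Tlr7, Tlr12 and Tlr13 (y axis, TMM-scaled CPM, with its own scale per gene) in the 5 classes. Bars give the mean of the 2 libraries, circles replicate 1 and triangles replicate 2, and Tlr9 and Tlr11 are not drawn. Tlr1, Tlr7, Tlr12 and Tlr13 are highest in macrophage-like cells (13.1 to 31.6 CPM over these genes and libraries), whereas Tlr3 is highest in cDC1-like cells (15.9 and 30.6 CPM).

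Macrophage-like cells are not uniform, and some of the receptors differed between parts of the class. Resident macrophage-like cells, those with genes of tissue macrophages such as Folr2, Lyve1 and Cd163, numbered 261 in replicate 1 and 48 in replicate 2. They were set against the other macrophage-like cells, a split chosen after seeing the data. Of 7 tested genes, Tlr7 was called higher and Tlr2 and Tlr12 lower in resident cells, where 17.1% of 7128 genes were called, 8.81% as higher and 8.28% as lower.

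Tlr12 had 3.60 and 3.18 CPM in resident cells, against 18.4 and 15.2 CPM in the other macrophage-like cells, with no overlap (log2 fold change −2.35, SE 0.53, adjusted p = 0.00245; 6 against 139 UMIs). Tlr2 had 403 and 395 CPM in resident cells, against 482 and 689 CPM in the others (log2 fold change −0.51, SE 0.17, adjusted p = 0.0369). Tlr7 had 51.2 and 31.8 CPM in resident cells, against 26.7 and 24.2 CPM in the others (log2 fold change 0.82, SE 0.28, adjusted p = 0.0443). The Tlr2 and Tlr7 groups do not overlap either, but both calls were lost without the library block (adjusted p = 0.170 for Tlr2 and 0.142 for Tlr7), and that of Tlr12 was not (adjusted p = 0.0176). Unc93b1 had 559 and 621 CPM in resident cells, against 549 and 596 CPM in the others, and was not called (log2 fold change 0.04, SE 0.13, adjusted p = 0.894). Tlr4, which was not tested, had 7.21 and 19.1 CPM in resident cells, against 5.37 and 4.79 CPM in the others.

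Clusters of macrophage-like cells, built without these genes, gave a finer view, described with no test. Tlr12 was at 48.8 and 28.2 CPM in cluster 10, which was led by Cxcl9 and Dnase1l3, and at 29.7 and 20.4 CPM in cluster 0, led by Zmynd15. The replicate 2 value of cluster 10 rests on 4 UMIs in 20 cells and lies below the replicate 1 value of cluster 0. Tlr12 was at 5.04 and 0 CPM in cluster 5 (Cd209f and Ccl8) and at 2.36 and 0 CPM in cluster 8 (Gpnmb and Spp1). Cluster 1, led by Il10 and Pf4, had 6.45 and 7.87 CPM, and cluster 4 had 12.3 and 3.12 CPM. Cxcl9 is a chemokine induced by interferon. A cluster of 17 cells led by Clec1b and Clec5a, too small to plot, had Tlr12 among its 10 leading genes, at 95.7 and 101 CPM from only 2 and 3 UMIs.

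The other genes followed other orders across the clusters. Unc93b1 was lowest in cluster 8, at 285 and 255 CPM, and lay between 422 and 741 CPM in clusters 0, 1, 4, 5 and 10. Tlr2 was at 614 and 801 CPM in cluster 0, and at 353 and 297 CPM in cluster 10, which had the highest Tlr12 level of the 6 larger clusters. Tlr7 was at 42.7 and 40.5 CPM in cluster 1 (Il10 and Pf4) and between 20.4 and 29.5 CPM in clusters 0, 4, 8 and 10. In cluster 5 Tlr7 had 56.4 and 21.6 CPM, but replicate 2 held only 16 cells of it. Tlr13 was at 28.4 and 23.8 CPM in cluster 8, where Tlr12 was low. In replicate 2, clusters 5 and 10 had more Tlr13, at 32.3 and 28.2 CPM, from 3 and 4 UMIs.

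**Figure D5:**
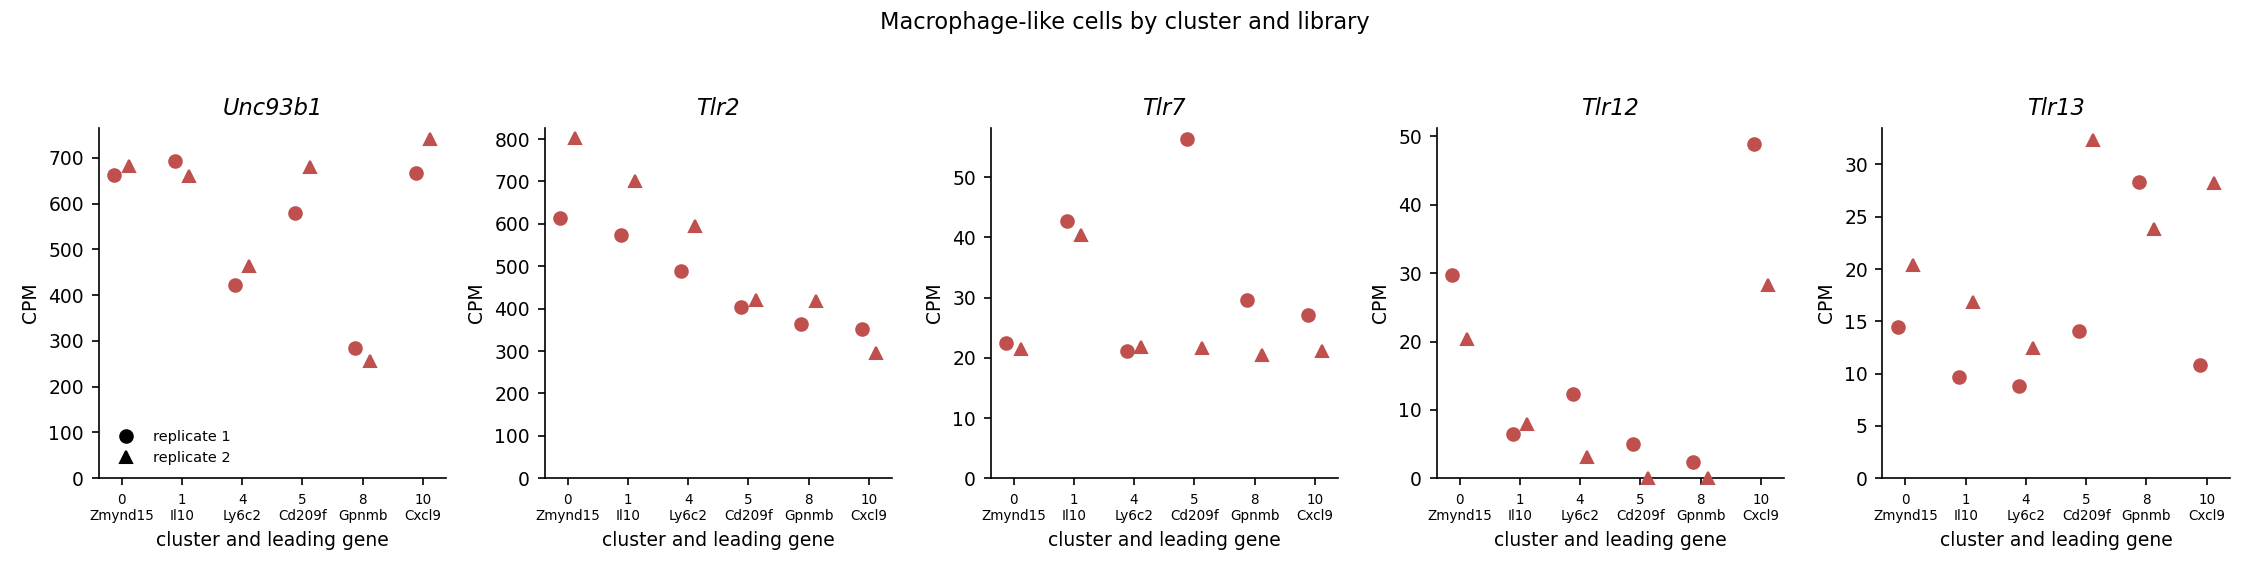
Level of Unc93b1, Tlr2, Tlr7, Tlr12 and Tlr13 (y axis, CPM, with its own scale per gene) in macrophage-like cells of 6 clusters (x axis, with the leading gene of each), circles for replicate 1 and triangles for replicate 2, with no error bars because each point is a sum over cells of 1 library. Among these clusters, Tlr12 is highest in cluster 10 (48.8 and 28.2 CPM) and Unc93b1 lowest in cluster 8 (285 and 255 CPM).

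The partners of the receptors were followed through lists of pathway genes. Of the adaptors, 3 of 5 were tested, and Sarm1 had 0 UMIs. Myd88, which most of the receptors share, had 15.5 and 5.77 CPM in mature DC-like cells, against 65.1 and 49.2 CPM in cDC2-like cells, and was called lower (log2 fold change −2.25, SE 0.63, adjusted p = 0.0166). The mature DC-like level rests on 5 UMIs, against 109 in cDC2-like cells. Myd88 was not called in the other 4 comparisons. Ticam2, which links Tlr4 to Ticam1, had 0 UMIs in cDC1-like cells, against 25 in cDC2-like cells and 101 in macrophage-like cells. Measured against a floor of 3 UMIs over both libraries, its level in cDC1-like cells was at least 6.55-fold lower than in cDC2-like cells (adjusted p = 0.00118), and in macrophage-like cells it was at least 5.57-fold higher than in cDC1-like cells (adjusted p = 0.000419).

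Genes of receptor transport and processing were followed next. Of 13 listed genes, 12 were tested, and in macrophage-like against cDC2-like cells 7 were higher and 1 lower, with a median log2 fold change of 1.08 beside 0.03 over all genes, of which 18.8% were higher and 18.1% lower. Against cDC1-like cells 6 were higher and 1 lower (median 1.04, all genes 0.01), where 21.0% of all genes were higher and 19.4% lower. In monocyte-like against macrophage-like cells 0 were higher and 7 lower (median −0.76, all genes −0.04), where 14.8% of all genes were higher and 15.6% lower. Among the proteases, Ctsl had 581 and 471 CPM in macrophage-like cells, against 49.1 and 33.4 CPM in cDC2-like cells (log2 fold change 3.70, SE 0.30, adjusted p = 1.97e-08). Lgmn had 1927 and 2461 CPM in macrophage-like cells, against 87.1 and 41.2 CPM in cDC1-like cells (5.06, SE 0.25, adjusted p = 3.59e-11). Ctsb had 926 and 944 CPM in monocyte-like cells, against 4143 and 4342 CPM in macrophage-like cells (−2.18, SE 0.12, adjusted p = 5.01e-10).

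Rab7b, a small GTPase of late endosomes, had the largest fold among called genes of this list between the conventional dendritic classes. It had 319 and 327 CPM in cDC1-like cells, against 18.4 and 17.6 CPM in cDC2-like cells (log2 fold change 4.15, SE 0.21, adjusted p = 3.35e-10). Macrophage-like cells had 266 and 232 CPM of Rab7b, monocyte-like cells 117 and 87.2 CPM and mature DC-like cells 19.4 and 11.5 CPM. The list as a whole had 1 higher and 4 lower in cDC1-like against cDC2-like cells (median −0.45, all genes −0.01), where 9.0% of all genes were higher and 11.1% lower. In mature DC-like against cDC2-like cells 1 gene of the list was higher and 2 lower, where 9.94% of all genes were higher and 9.03% lower. Hsp90b1, a chaperone for folding of the receptors in the endoplasmic reticulum, was lower there, at 140 and 115 CPM in mature DC-like cells, against 300 and 252 CPM in cDC2-like cells (log2 fold change −1.09, SE 0.22, adjusted p = 0.0015). Resident macrophage-like cells had 0 of the list higher and 2 lower than the others, where 8.81% of all genes were higher and 8.28% lower. Ctss had 2504 and 2781 CPM in resident cells, against 6851 and 7689 CPM in the others (log2 fold change −1.46, SE 0.11, adjusted p = 5.20e-10).

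Of the co-receptors, 7 of 8 were tested. In macrophage-like cells 6 were higher and 1 lower than in cDC2-like cells (median log2 fold change 1.39, all genes 0.03), where 18.8% of all genes were higher and 18.1% lower. Against cDC1-like cells 4 were higher, 1 was lower and 2 were not called (median 0.83, all genes 0.01), where 21.0% of all genes were higher and 19.4% lower. Cd14, which hands lipopolysaccharide to Tlr4 and Ly96, had 1894 and 2984 CPM in macrophage-like cells, against 335 and 500 CPM in cDC1-like cells (log2 fold change 2.54, SE 0.14, adjusted p = 1.52e-10). Ly96 had 16.5 and 17.2 CPM in macrophage-like cells, against 0 and 6.15 CPM in cDC2-like cells (2.25, SE 0.63, adjusted p = 0.0084). Cd36, a scavenger receptor that assists Tlr2, broke the pattern among dendritic cells, with 103 and 77.1 CPM in cDC1-like cells, against 9.82 and 0 CPM in cDC2-like cells (4.39, SE 0.54, adjusted p = 1.02e-05). In mature DC-like against cDC2-like cells 1 co-receptor was higher and 4 were lower, where 9.94% of all genes were higher and 9.03% lower. Cd14 was among the lower ones, with 179 and 427 CPM, against 652 and 998 CPM (−1.51, SE 0.16, adjusted p = 2.08e-06).

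Of the kinases and ligases near the receptors, 12 of 18 were tested. In macrophage-like against cDC2-like cells 1 was higher and 3 were lower (median log2 fold change −0.02; 37.0% of all genes called), and in cDC1-like against cDC2-like cells 0 were higher and 1 was lower (median −0.36; 20.1% of all genes called). Ikbkb, the kinase that releases NF-κB, had 58.5 and 64.7 CPM in macrophage-like cells, against 163 and 201 CPM in cDC2-like cells (log2 fold change −1.56, SE 0.15, adjusted p = 1.99e-07). Traf3, a ligase on the route to type I interferon, had 42.7 and 57.7 CPM in mature DC-like cells, against 9.82 and 12.3 CPM in cDC2-like cells, and was called higher (log2 fold change 2.11, SE 0.46, adjusted p = 0.00298).

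Of the transcription factors downstream of the receptors, 10 of 10 were tested. In cDC1-like against cDC2-like cells 3 were higher and 6 lower (median log2 fold change −0.97, all genes −0.01), where 9.0% of all genes were higher and 11.1% lower. In mature DC-like against cDC2-like cells 4 were higher and 0 lower (median 0.70, all genes −0.09), where 9.94% of all genes were higher and 9.03% lower. Irf8, needed for cDC1 development, had 767 and 853 CPM in cDC1-like cells, against 67.5 and 37.8 CPM in cDC2-like cells (log2 fold change 4.01, SE 0.23, adjusted p = 1.68e-09). Mature DC-like cells were likewise high in Irf8, at 1224 and 692 CPM (log2 fold change against cDC2-like cells 4.21, SE 0.24, adjusted p = 6.75e-10). Nfkb1 had 155 and 74.4 CPM in cDC1-like cells, against 551 and 658 CPM in cDC2-like cells (−2.38, SE 0.24, adjusted p = 8.63e-07). Relb, an NF-κB subunit of mature dendritic cells, had 501 and 548 CPM in mature DC-like cells, against 92.1 and 86.1 CPM in cDC2-like cells (2.54, SE 0.19, adjusted p = 3.17e-08).

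Of the negative regulators, 12 of 13 were tested. In macrophage-like against cDC1-like cells 6 were higher and 1 lower (median log2 fold change 0.97; 40.4% of all genes called), and against cDC2-like cells 2 were higher and 4 lower (median −0.24; 37.0% of all genes called). Dok3, an adaptor of inhibitory signalling, had 13.7 and 6.49 CPM in monocyte-like cells, against 61.3 and 75.2 CPM in macrophage-like cells (log2 fold change −2.67, SE 0.30, adjusted p = 2.36e-06). Sigirr, an inhibitory receptor of the same family, went the other way, with 1.66 and 2.18 CPM in macrophage-like cells, against 16.0 and 20.2 CPM in cDC2-like cells (−3.19, SE 0.41, adjusted p = 6.98e-06).

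Of the cytokine genes that the receptors induce, 8 of 9 were tested. In macrophage-like cells 6 were higher and 1 lower than in cDC1-like cells (median log2 fold change 2.06, all genes 0.01; 40.4% of all genes called). Against cDC2-like cells 4 were higher and 1 lower (median 0.92, all genes 0.03; 37.0% of all genes called). Il10 had 191 and 99.4 CPM in macrophage-like cells, against 1.23 and 1.76 CPM in cDC2-like cells, which rests on 3 UMIs there (pooled ratio 110, adjusted p = 1.08e-09). Il6 had 54.9 and 341 CPM in monocyte-like cells, against 14.3 and 7.27 CPM in macrophage-like cells (log2 fold change 3.70, SE 0.46, adjusted p = 5.86e-06), and the libraries of monocyte-like cells were far apart. Il12b had 587 and 583 CPM in mature DC-like cells, against 1.23 and 16.7 CPM in cDC2-like cells (5.81, SE 0.66, adjusted p = 3.79e-06).

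The genes whose levels followed each receptor most closely over the 10 class sums are given as a description, since the sums share libraries and cells. For Unc93b1 they were Lyl1, Pld4 and Hprt, with Pearson's r of 0.982, 0.967 and 0.964 on log2 CPM among 7154 candidates. For Tlr2 they were Alas1, Cltc and Csf1r (0.980, 0.977 and 0.974), and for Tlr1 Fndc3a, Itga9 and Apbb2 (0.943, 0.918 and 0.897). For Tlr7 they were Aoah, Lrpap1 and Hgf (0.969, 0.962 and 0.960), for Tlr13 Scarb2, Taf6l and Syngr1 (0.965, 0.960 and 0.954) and for Tlr12 Sash1, Atp6v1d and Pik3ap1 (0.926, 0.915 and 0.904). Tlr3, Tlr4, Tlr9 and Tlr11 had under 100 UMIs and were left out.

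In the mouse genome (mm10), Unc93b1 lies at chr19:3935186-3949340, Tlr2 at chr3:83836272-83841767 and Tlr3 at chr8:45395665-45411080. Tlr12 lies at chr4:128615443-128618619 and Tlr4 at chr4:66827584-66930284, while Tlr7 at chrX:167304929-167330558 and Tlr13 at chrX:106143204-106160493 share a chromosome. Tlr1 lies at chr5:64924679-64933563, Tlr9 at chr9:106222598-106226883 and Tlr11 at chr14:50357914-50363663. None overlapped another gene on its own strand in GENCODE M21, and Gm45542 overlaps Tlr3 on the opposite strand.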

How the data were processed

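For each of the 2 libraries, the files deposited by the authors hold unfiltered UMI counts of every gene in every barcode. Libraries were made with the 10x Genomics 3′ version 2 chemistry, per the labels' protocols, and processed with Cell Ranger 2.2.0 on mm10, per the submitters' processing notes. The annotation used for counting is not given in the sources used here.

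Barcodes were called as cells above the 99th percentile of UMIs among the 3000 largest divided by 10, at 2112 UMIs in replicate 1 and 1905 in replicate 2. Of 2013 and 1318 such barcodes, 83 and 90 had over 10% mitochondrial UMIs, 0 and 1 had under 200 genes, and 30 and 12 were removed as doublets by Scrublet. The 1900 and 1216 cells left had medians of 5659.5 and 7141.5 UMIs, out of 17369071 and 13317214 UMIs per library, and the libraries shared 2 cell barcodes.

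Cells were classed by mean scaled level of marker genes, with gates of 0.25 (cDC1), 0.22 (cDC2), 0.25 (mature DC), 0.18 (monocyte) and 0.35 (macrophage) and a margin of 1.25 over the next class. Within 10% of a gate, 14 cells lay inside and 8 outside for cDC1, 17 and 26 for cDC2, 4 and 1 for mature DC, 19 and 29 for monocyte and 32 and 28 for macrophage. The member genes and pathway lists were chosen with earlier results of these data known. Counts were summed per class and library and tested in R 4.3.3 with edgeR 4.0.16 (TMM, filterByExpr, quasi-likelihood F-test, with a block for library, since its classes share 1 capture). With 10 sums, 4 residual degrees of freedom were left, and the common coefficient of biological variation was 0.108. Genes were called at an adjusted p under 0.05 (Benjamini-Hochberg over all genes tested). Per-library folds used a prior count of 2. DESeq2 1.42.0, RLE scaling, no filter, other cell filters and gates, clusters (scanpy 1.11.5, leidenalg 0.10.2, Python 3.11.15), no cycling cells and free RNA subtraction were alternatives. The per-library folds, with no new fit, were set beside them. The edgeR script was checked on simulated data.

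Genes to be named were the 10 members, Tlr5, Tlr6 and Tlr8, up to 2 genes of each list per comparison with the largest fold among called genes whose sign was shared by the libraries, and the 3 genes most correlated with each member of at least 100 UMIs; the text gives examples from these. Where a class had 1 to 3 UMIs of a gene, the ratio of pooled levels is given with an exact 95% counting interval. Where it had 0, a bound against 3 UMIs is given. Intervals and floors cover counting error only.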

Additional observations from a re-analysis of the deposited data

Results flagged for a closer look

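Signals of these genes appeared in cell classes outside the comparisons above. Tlr4 reached 9.27 CPM in epithelial-like cells (exact 95% interval 5.30 to 15.05 CPM; 16 UMIs, 14 in replicate 1 and 2 in replicate 2, over 143 cells), where the highest pooled level of the 5 compared classes was 6.26 CPM. Tlr7 reached 82.9 CPM in 9 plasmacytoid DC-like cells (interval 26.9 to 193 CPM; 5 UMIs, 3 in replicate 1 and 2 in replicate 2), where the highest pooled level of the 5 compared classes was 30.03 CPM. These levels are pooled over both libraries and not scaled by TMM, and the intervals cover counting error only. Neither difference was tested across libraries.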

How the results depend on the processing

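Of 274 tested values for 23 results on single genes, 268 kept their direction and their side of the threshold and 6 lost their call. Another 46 values are folds of 1 library alone, taken with the prior count of 2 and with no new fit, and have no test. Of these, 15 moved, lying at least the SD of the 2 library folds away from the fitted fold. The prior count shrinks folds of small counts, so a moved value does not by itself show dependence on a library. None of the 320 changed sign. The 6 lost calls are Unc93b1 in cDC1-like against cDC2-like cells (3 alternatives), Tlr1 in macrophage-like against cDC2-like cells (DESeq2) and Tlr12 in macrophage-like against cDC1-like cells (DESeq2, and no cycling cells). Without cycling cells Tlr3 failed the filter and has no value. With no filter on low counts, 2 of the genes were called in mature DC-like against cDC2-like cells (Tlr2 and Unc93b1) where 1 was called with it. The share of macrophage-like cells with a Tlr2 UMI, 56.0% over both libraries, was 81.7% with no thinning and 35.5% with barcodes of at least 1000 UMIs thinned to that depth. In 1 library alone, the log2 fold of Tlr3 in cDC1-like against cDC2-like cells was 2.82 in replicate 1 and 3.93 in replicate 2, with no test. The fit over both libraries, a different measure, gave 4.42. Without the library block, the members called were the same in the 5 comparisons, while the genes called in all numbered 969 instead of 1378 in cDC1-like against cDC2-like cells, 1408 instead of 2081 in monocyte-like against macrophage-like cells and 1965 instead of 2529 in macrophage-like against cDC2-like cells. In the resident split, chosen after seeing the data, Tlr7 (0.82, adjusted p = 0.142) and Tlr2 (−0.55, adjusted p = 0.170) lost their calls without the block. Depth limits Tlr9 and Tlr11, and the 49 and 28 mature DC-like cells limit every statement about that class.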

Other observations

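Beyond the compared classes, Unc93b1 was at 381 CPM in the 9 plasmacytoid DC-like cells (23 UMIs, exact 95% interval 242 to 572 CPM, pooled over both libraries and not scaled by TMM) and at 200 CPM in the 15 B-like cells (8 UMIs, 86.3 to 394 CPM), which all came from replicate 2. It was at 35.3 CPM in 143 epithelial-like cells and at 13.8 CPM in 47 fibroblast-like cells. The B-like cells also held 3 Tlr7 UMIs (74.9 CPM, 15.5 to 219 CPM) and 0 of Tlr2. Tlr3 was at 7.53 CPM in epithelial-like cells (13 UMIs, 12 of them in replicate 1; 4.01 to 12.9 CPM). These are values of few cells, with no test between classes.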
